A study of Homo sapiens with 4 samples.

Results

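Ribonucleotide reductase and the enzymes around it were measured on 4 arrays of HCT116 cells, a human colorectal carcinoma line. The cells were untreated, or were exposed for 24 h to hydroxyurea at 1 mM, to MS-275 at 2 µM or to the combination, and 1 GeneChip Human Gene 2.0 ST array was hybridised per condition. Transcript clusters were taken by platform symbol. RRM1, RRM2, RRM2B, TYMS and SAMHD1 had 1 cluster each, which makes 5 of 14884 named genes. The clusters are 16721126 for RRM1 (chromosome 11), 16877019 for RRM2 (chromosome 2), 17079808 for RRM2B (chromosome 8), 16850477 for TYMS (chromosome 18) and 16919022 for SAMHD1 (chromosome 20). All 5 lay above the filter on dim genes, a mean intensity of 90.5, which 7649 genes passed. With 1 array per condition, no value here has a replicate error and no p-value is given. Whether the arrays come from separate cultures is not stated in the labels, and all 4 share 1 cell line.

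Ribonucleotide reductase (RNR) reduces ribonucleotides to deoxyribonucleotides and so supplies the precursors of DNA. Its large subunit, RRM1, holds the catalytic and regulatory sites. Its small subunit carries a tyrosyl radical next to an iron centre, and hydroxyurea quenches this radical. RRM2 is the small subunit of S phase, and RRM2B (p53R2) is its p53-inducible counterpart, which also serves cells outside S phase. TYMS, thymidylate synthase, methylates dUMP to dTMP. SAMHD1 works in the opposite direction and hydrolyses dNTPs to deoxynucleosides. MS-275 (entinostat) is a benzamide inhibitor of HDAC1, HDAC2 and HDAC3, which are class I deacetylases that act on histones.

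The promoters are shown because RRM1, RRM2 and TYMS are known S phase genes, and E2F factors and the CCAAT-binding factor NF-Y are known regulators of such genes. RefSeq promoters of build GRCh38.p14, 250 bases before the annotated start and 50 bases from it on, matched 4 of the 5 genes by symbol. RRM2B was the gene not matched. The sequence of RRM1 is chr11:4094435-4094734 on the plus strand, and that of RRM2, from the downstream of 2 annotated starts, is chr2:10122489-10122788 on the plus strand. The sequence of TYMS is chr18:657403-657702 on the plus strand and that of SAMHD1 is chr20:36951659-36951958 on the minus strand. Capitals mark CCAAT and the E2F-type words TTCCCGC or TTCGCGC or TTGCCGC or TTGGCGC, each searched on both strands. No CCAAT match overlapped an E2F-type match.
RRM1: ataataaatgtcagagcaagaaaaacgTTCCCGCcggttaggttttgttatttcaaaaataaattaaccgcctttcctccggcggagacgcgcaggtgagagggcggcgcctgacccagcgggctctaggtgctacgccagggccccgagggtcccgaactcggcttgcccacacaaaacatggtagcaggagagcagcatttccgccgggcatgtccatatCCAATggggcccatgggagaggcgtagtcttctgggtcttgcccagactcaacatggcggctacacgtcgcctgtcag
RRM2: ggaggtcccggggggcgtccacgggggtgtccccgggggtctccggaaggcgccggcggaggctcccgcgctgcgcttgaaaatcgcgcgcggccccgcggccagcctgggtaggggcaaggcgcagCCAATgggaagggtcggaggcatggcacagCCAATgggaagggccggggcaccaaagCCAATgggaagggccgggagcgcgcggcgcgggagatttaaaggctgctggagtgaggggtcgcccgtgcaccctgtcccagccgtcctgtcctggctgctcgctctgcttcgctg
TYMS: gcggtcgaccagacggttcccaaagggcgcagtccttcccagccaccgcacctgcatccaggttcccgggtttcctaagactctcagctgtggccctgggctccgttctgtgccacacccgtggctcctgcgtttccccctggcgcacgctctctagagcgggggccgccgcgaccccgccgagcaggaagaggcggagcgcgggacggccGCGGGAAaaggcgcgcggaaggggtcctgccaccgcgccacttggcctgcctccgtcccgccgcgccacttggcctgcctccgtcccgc
SAMHD1: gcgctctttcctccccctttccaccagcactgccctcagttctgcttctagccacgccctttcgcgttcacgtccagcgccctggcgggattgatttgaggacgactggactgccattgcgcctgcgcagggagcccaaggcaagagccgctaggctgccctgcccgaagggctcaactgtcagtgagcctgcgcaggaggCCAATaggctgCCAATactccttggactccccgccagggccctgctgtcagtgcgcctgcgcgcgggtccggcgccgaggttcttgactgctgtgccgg

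The downstream RRM2 promoter held 3 CCAAT words, which began 123, 93 and 66 bases before its start, and the upstream one held 1, at 249 bases. Of 35093 promoters, 3.3% held 3 or more and 34.6% held at least 1. SAMHD1 held 2 of them, 49 and 38 bases before the start, and RRM1 held 1, 28 bases before the start. TYMS held 0. An E2F-type word was found in TYMS, 39 bases before the start, and in RRM1, 223 bases before it, while 13.0% of all promoters held one. The downstream RRM2 promoter held 0 E2F-type words and the upstream one held 1, at 192 bases. The exact word TATAAA was found in 0 of the 5 promoters and in 11.5% of all promoters, and variants of it were not searched. The GC box word GGGCGG was found in RRM1, in the upstream RRM2 promoter and in 44.9% of all promoters. These are matches of letters and were not tested as binding sites.

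**Figure D1:**
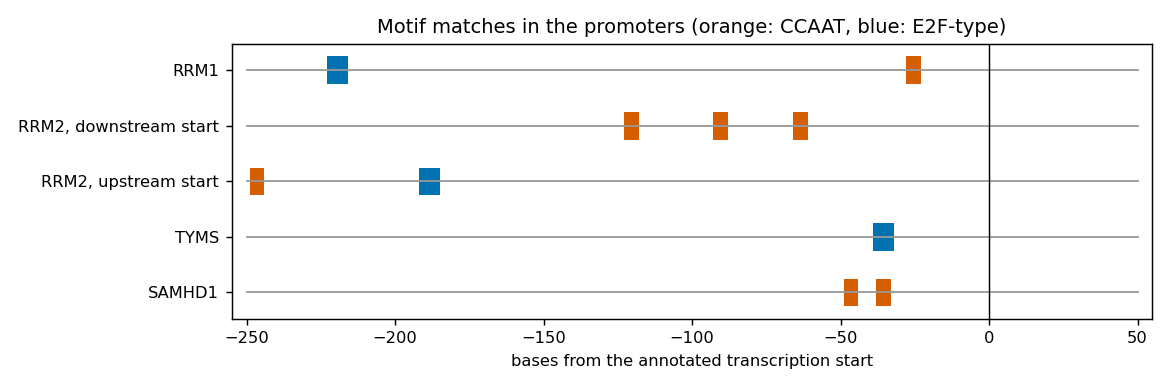
Positions of CCAAT words (orange) and E2F-type words (blue) in the 5 RefSeq promoters of 4 genes, on an axis of bases from the annotated transcription start. The 3 CCAAT words of RRM2 lie 123, 93 and 66 bases before its downstream start, and the E2F-type word of TYMS lies 39 bases before its start.

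RRM2, the S phase small subunit, was highest in the cells that received both drugs. The untreated array gave an intensity of 911, hydroxyurea gave 1407, MS-275 gave 778 and the combination gave 1585. Both arrays with hydroxyurea thus lay above both arrays without it. In the absence of MS-275, RRM2 was 1.54-fold higher with hydroxyurea, and 2.5% of the 7649 genes had a larger log2 difference. In its presence, the difference was 2.04-fold, and 48 genes (0.6%) exceeded it. RRM2 was the member with the largest hydroxyurea difference on the MS-275 background. With MS-275 alone it was at 0.85-fold of untreated cells, and in the presence of hydroxyurea MS-275 went with 1.13-fold.

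RRM2B, the p53-inducible small subunit, was also higher on both arrays with hydroxyurea, but its highest value was with hydroxyurea alone. The untreated array gave 342, hydroxyurea 545, MS-275 392 and the combination 524, all as intensities. This is 1.60-fold with hydroxyurea alone, exceeded by 2.0% of genes, and 1.34-fold where hydroxyurea was added to MS-275, exceeded by 9.3%. The last value did not pass 1.5-fold. MS-275 went with 1.15-fold without hydroxyurea and 0.96-fold with it. The p53 pathway was read from 14 listed target genes, of which 5 had a named cluster. With hydroxyurea alone, 3 of these 5 were at least 1.5-fold higher, beside 3.12% of all genes, and the median log2 difference of the 5 was 0.77 against 0.01 over all genes. They were TP53I3 (2.19-fold), a quinone oxidoreductase, SESN1 (1.88-fold), a stress-induced sestrin, and the pro-apoptotic gene BAX (1.70-fold). The untreated intensity of SESN1, 89.9, lay just below the filter value of 90.5. Where hydroxyurea was added to MS-275, 1 of the 5 was at least 1.5-fold higher, SESN2 (1.61-fold), beside 4.84% of all genes. The median was 0.28 against 0.03. With MS-275 alone, 0 of the 5 passed 1.5-fold, which for so few genes is close to the 6.94% higher and 6.84% lower of all genes. The median there was -0.28 against -0.01, and SESN2, at 0.67-fold, differed most. With both drugs against untreated cells, 1 of the 5 was higher, SESN1 (1.56-fold), beside 11.7% of all genes, and the median was 0.035 against 0.01. Where MS-275 was added to hydroxyurea, TP53I3 was at 0.39-fold and BAX at 0.59-fold, both past 1.5-fold, where 5.41% of all genes were lower. RRM2B was at 0.96-fold there.

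RRM1, the large subunit, differed less than 1.5-fold in all 5 comparisons and was highest with hydroxyurea and lowest with MS-275. Its intensity was 859 on the untreated array, 1200 after hydroxyurea, 576 after MS-275 and 858 after the combination. Hydroxyurea went with a higher RRM1 in both backgrounds, by 1.40-fold without MS-275 and 1.49-fold with it. MS-275 went with a lower RRM1 in both backgrounds, by 1.49 times without hydroxyurea and 1.40 times with it. With both drugs the gene lay at its untreated level, with a log2 difference of 0.00. The differences of 1.49 lie next to the limit of 1.5-fold. When each array was centred on its median, the hydroxyurea difference on the MS-275 background was 0.61 on the log2 scale and passed it.

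TYMS was lower on both arrays with MS-275 and nearly equal on the others. Its intensities were 1523 on the untreated array and 1562 after hydroxyurea, but 608 after MS-275 and 862 after the combination. The difference between MS-275 and untreated cells was 2.50 times, and 18 of the 7649 genes had a lower difference. With hydroxyurea present, it was 1.81 times lower with MS-275, with 132 genes below it. Hydroxyurea went with 1.03-fold in the absence of MS-275 and 1.42-fold in its presence. RefSeq places ENOSF1 and TYMSOS across the span of TYMS and names 2 pseudogenes after it and 3 after RRM2. None of these has a named cluster here. RefSeq also places 3 genes across RRM2 and 1, TLDC2, across SAMHD1. Of these, only the microRNA gene MIR4261, across RRM2, has a named cluster. Its intensities lay far below the filter, at 19.8 untreated, 12.1 after hydroxyurea, 22.9 after MS-275 and 9.89 after the combination. The part that cross-hybridisation has in the values was not tested.

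SAMHD1, the dNTP hydrolase, was higher with either drug and highest with both. It gave intensities of 442 on the untreated array, 581 after hydroxyurea, 800 after MS-275 and 1020 after the combination. Both arrays with MS-275 lay above both without it. MS-275 went with 1.81-fold in the absence of hydroxyurea and 1.76-fold in its presence, exceeded by 2.9% and 4.1% of genes. Hydroxyurea went with 1.32-fold without MS-275 and 1.28-fold with it, neither of which passed 1.5-fold. Compared with untreated cells, both drugs together went with 2.31-fold.

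**Figure D2:**
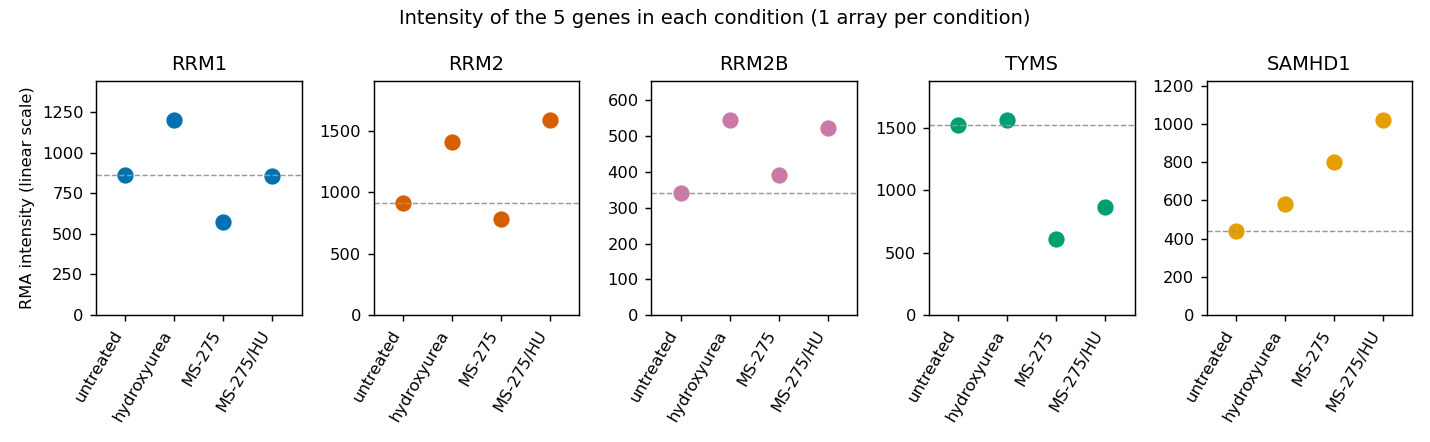
RMA intensity on a linear axis that starts at 0, 1 point per array and 1 panel per gene, in the order untreated, hydroxyurea, MS-275 and MS-275/hydroxyurea (MS-275/HU). The dashed line marks the untreated value. RRM2 and RRM2B are high on the 2 arrays with hydroxyurea, TYMS is low and SAMHD1 high on the 2 arrays with MS-275, and RRM1 returns from 576 with MS-275 to 858 with both drugs.

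The 5 genes were then set against all genes tested, comparison by comparison. With hydroxyurea alone, 2 of the 5 were at least 1.5-fold higher (RRM2 and RRM2B), where 3.12% of 7649 genes were, and 0 were lower, where 1.27% were. The median log2 difference of the 5 genes was 0.48, against 0.01 over all genes. With MS-275 alone, SAMHD1 was higher, as were 6.94% of all genes, and TYMS was lower, as were 6.84%. The median of the 5 genes was -0.23, against -0.01.

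With both drugs against untreated cells, RRM2, RRM2B and SAMHD1 were at least 1.5-fold higher, beside 11.7% of all genes, and TYMS was lower, beside 6.84%. RRM2B, at 1.53-fold, was the nearest to the limit. Where hydroxyurea was added to MS-275, RRM2 was the only member past 1.5-fold among the higher genes, which made up 4.84% of all genes, and 0 members were among the lower 1.03%. All 5 members nevertheless had log2 differences above 0 there, from 0.35 for SAMHD1 to 1.03 for RRM2, with a median of 0.50 against 0.03 over all genes. Where MS-275 was added to hydroxyurea, SAMHD1 was higher, beside 8.67% of all genes, and TYMS lower, beside 5.41%, with a median of -0.06 against 0.00. The comparisons with untreated cells share the untreated array. Those of MS-275 with untreated cells and of both drugs with MS-275 share the MS-275 array with opposite sign, as those of hydroxyurea with untreated cells and of both drugs with hydroxyurea share the hydroxyurea array. The comparisons of both drugs with untreated cells, with MS-275 and with hydroxyurea share the combination array with the same sign. A deviation of that array would appear in each of them. The comparison of hydroxyurea with untreated cells and that of both drugs with MS-275 share no array.

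**Figure D3:**
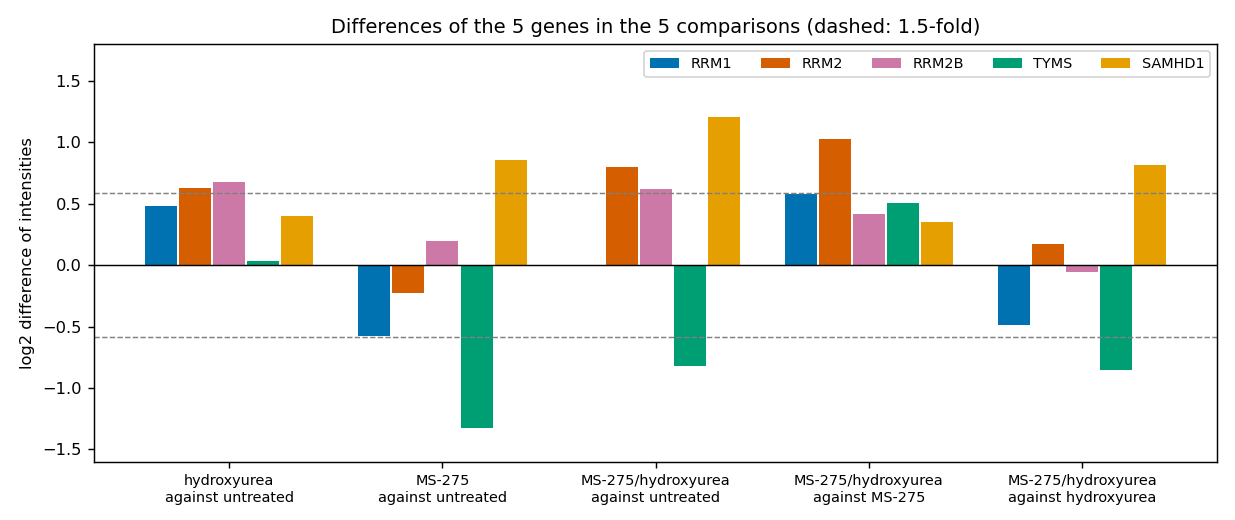
Log2 difference of intensities (vertical axis) of the 5 genes in the 5 comparisons, 1 bar per gene, with 1.5-fold in either direction as dashed lines. SAMHD1 (0.86) and TYMS (-1.32) lie on opposite sides with MS-275 alone, and all 5 bars lie above 0 where hydroxyurea was added to MS-275.

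Differences between members within the same arrays do not depend on the scale of an array. Relative to RRM1, RRM2 was 1.11-fold higher with hydroxyurea, 1.27-fold with MS-275 and 1.74-fold with both drugs than in untreated cells. RRM2B relative to RRM1 was 1.14-fold, 1.71-fold and 1.54-fold higher in the same order. Both ratios passed 1.5-fold with both drugs, and that of RRM2B to RRM1 also with MS-275 alone, while the other 3 of these 6 values did not. The ratio of RRM2 to RRM2B was at 0.97-fold with hydroxyurea, 0.74-fold with MS-275 and 1.13-fold with both. None of these 3 passed 1.5-fold. Between MS-275/hydroxyurea and MS-275 it was 1.53-fold higher. The ratio of SAMHD1 to TYMS, a hydrolase against a synthase, was 1.28-fold higher with hydroxyurea, 4.54-fold with MS-275 and 4.08-fold with both.

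The response to one drug was compared without and with the other. Non-additivity is what remains of the combined log2 difference after the differences of hydroxyurea alone and of MS-275 alone are subtracted. It was 0.47 for TYMS, 0.40 for RRM2, 0.09 for RRM1, -0.05 for SAMHD1 and -0.26 for RRM2B. Over all 7649 genes the median was 0.02, and the 5th and 95th percentiles were -0.41 and 0.48, so that all 5 members lay between these percentiles. RRM1 and SAMHD1 had nearly the same difference in either background.

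**Figure D4:**
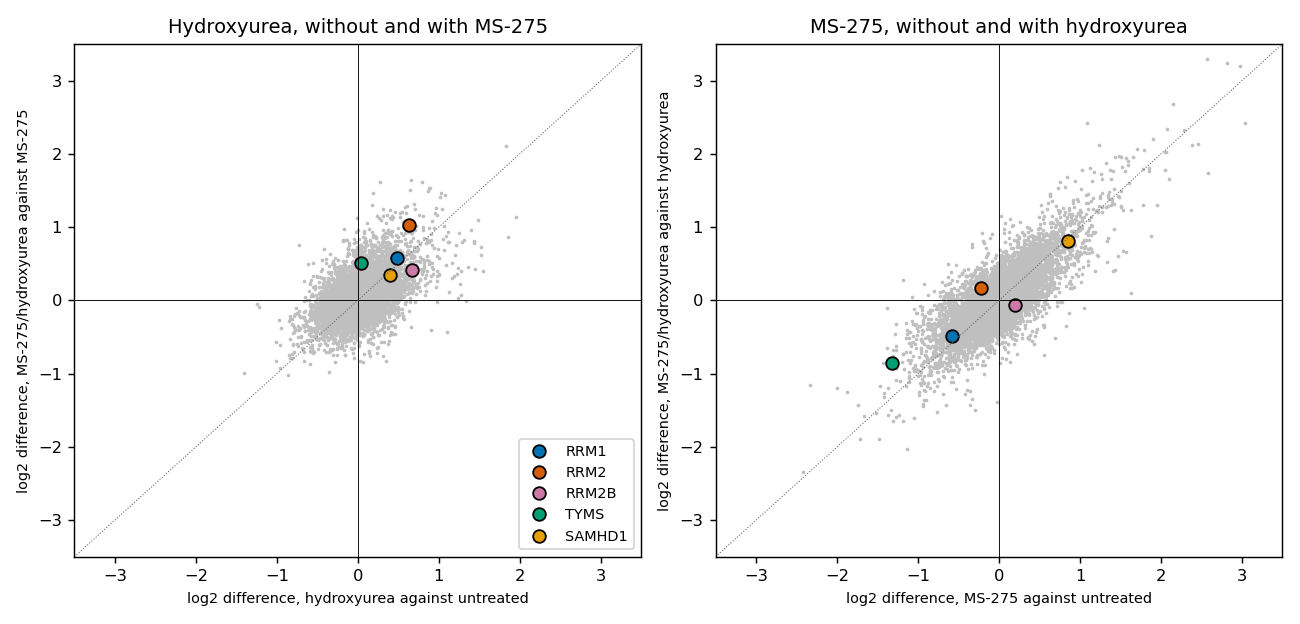
Log2 differences of all 7649 genes (grey) and of the 5 members (coloured), for hydroxyurea without (horizontal) and with MS-275 (vertical) on the left, and for MS-275 without (horizontal) and with hydroxyurea (vertical) on the right. The dotted line marks equal differences. RRM2 lies above it on the left (0.63 and 1.03), and TYMS (-1.32 and -0.86) and SAMHD1 (0.86 and 0.81) lie on opposite sides of 0 on the right.

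The other genes of dNTP supply and its regulators were read from 10 lists of 107 genes, of which 67 had a named cluster and 61 passed the filter. With hydroxyurea alone, 4 of the 61 were at least 1.5-fold higher and 0 lower, where 3.12% and 1.27% of all genes were, with a median log2 difference of 0.10 against 0.01 over all genes. With MS-275 alone, 1 was higher and 10 were lower, beside 6.94% and 6.84% of all genes, with a median of -0.17 against -0.01. With both drugs against untreated cells, 2 were higher and 6 lower, beside 11.7% and 6.84%, and the median was -0.04. Where hydroxyurea was added to MS-275, 7 were higher and 1 was lower, beside 4.84% and 1.03%, and the median was 0.06 against 0.03. Where MS-275 was added to hydroxyurea, 1 was higher and 7 were lower, beside 8.67% and 5.41%, and the median was -0.25.

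Upstream of RRM1, RRM2 and TYMS, the E2F, DP and retinoblastoma family genes contributed 10 measured genes. With hydroxyurea alone 3 were higher, beside 3.12% of all genes, E2F7 (1.95-fold), E2F2 (1.76-fold) and E2F8 (1.64-fold). E2F7 and E2F8 encode repressors of E2F targets, and E2F2 encodes an activator. With MS-275 alone, E2F8 was 2.18 times lower, and E2F7 was 1.63 times lower, beside 6.84% of all genes. Where hydroxyurea was added to MS-275, E2F7 was 2.39-fold, E2F8 2.03-fold, E2F2 1.81-fold and E2F1 1.76-fold higher, beside 4.84% of all genes. Where MS-275 was added to hydroxyurea, E2F8 was 1.76 times and the DP subunit gene TFDP1 1.54 times lower, beside 5.41% of all genes. The retinoblastoma gene RB1 was at 1.11-fold with hydroxyurea, 1.15-fold with MS-275 and 1.40-fold with both drugs. With both drugs against untreated cells, 0 of the 10 passed 1.5-fold, beside 11.7% higher and 6.84% lower of all genes. The median there was 0.09, and E2F7, at 1.46-fold, differed most. The list's median was 0.35 with hydroxyurea, -0.49 with MS-275 and 0.47 for hydroxyurea on the MS-275 background.

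Genes of S phase differed between the same arrays. MS-275 alone went with values at least 1.5-fold below the untreated array for 17 of 18 measured E2F targets, beside 6.84% of all genes, and the exception was GINS4, at 1.08-fold. Their median was -0.88. Where hydroxyurea was added to MS-275, 14 of the 18 were higher, beside 4.84% of all genes, with a median of 0.86, led by the cyclin gene CCNE2 (4.32-fold) and the helicase factor gene MCM10 (2.76-fold). Both comparisons use the 1 MS-275 array, with opposite sign, so that a deviation of that array would appear in both. With hydroxyurea alone, 2 were higher, beside 3.12% of all genes, CCNE2 (3.55-fold) and the helicase loader gene CDC6 (a log2 difference of 0.59, just past the limit), and the median was 0.37. With both drugs against untreated cells, CCNE2, GINS4 and CDC6 were higher, MCM5 and MCM7 were lower, beside 11.7% and 6.84% of all genes, and the median was -0.02. Where MS-275 was added to hydroxyurea, MCM2, MCM4, MCM5 and CCNE2 were lower, beside 5.41% of all genes, with a median of -0.48. RRM1, RRM2 and TYMS are genes of the same phase. In RNA from whole cultures, fewer cells in S phase and less transcript per cell cannot be told apart, and the part of cell cycle distribution in the values of the 5 genes was not tested.

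Beside RNR itself, 7 genes of the electron donors that regenerate it were measured. With MS-275 alone, 1 of the 7 was higher and 1 lower, beside 6.94% and 6.84% of all genes. The glutaredoxin gene GLRX was the only gene higher with MS-275 (1.62-fold) and with both drugs (1.84-fold, beside 11.7% of all genes). Its intensity of 95.7 in untreated cells lies close to the filter. The mitochondrial thioredoxin reductase gene TXNRD2 was 1.62 times lower with MS-275, at an intensity of 90.3, just below the filter value of 90.5. The thioredoxin gene TXN was at 1.06-fold with hydroxyurea and 1.05-fold with MS-275, and the reductase gene TXNRD1 at 1.07-fold and 1.03-fold. With hydroxyurea alone, 0 of the 7 passed 1.5-fold, which for so few genes is close to the 3.12% higher and 1.27% lower of all genes. Among 4 measured genes of the turnover of RRM2 protein, CUL1, the cullin of the SCF ubiquitin ligase, was 1.66 times lower after MS-275, and 1.72 times lower after the combination. In either comparison, 6.84% of all genes were lower. CCNF, which targets RRM2 for degradation, was at 0.69-fold with MS-275 and 0.99-fold with both.

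Around TYMS, 2 of 6 measured genes of the thymidylate cycle and of uracil removal from DNA were lower with MS-275, beside 6.84% of all genes. DUT, of the same list, lay below the filter. UNG, the uracil-DNA glycosylase that removes misincorporated uracil, was 2.49 times lower, from an intensity of 657 to 264. DTYMK, the kinase that acts on the dTMP made by TYMS, was 1.72 times lower. With both drugs, UNG was 1.81 times lower than in untreated cells and DTYMK, at 0.71-fold, did not pass 1.5-fold. SHMT1, which supplies the folate cycle, was at 0.69-fold with MS-275 and 1.01-fold with both. With hydroxyurea alone, 0 of the 6 passed 1.5-fold, which for so few genes is close to the 3.12% higher and 1.27% lower of all genes. The same holds for the 2 measured salvage kinases, DCK and DGUOK. DCK, the deoxycytidine kinase, was at 0.67-fold with MS-275 and was 1.62-fold higher where hydroxyurea was added to it, beside 4.84% of all genes.

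Around SAMHD1, CDK1 and CCNA2, whose products phosphorylate SAMHD1 in cycling cells, were lower with MS-275, by 1.62 and 1.83 times. They are 2 of the 4 measured genes of their list, beside 6.84% of all genes. Where hydroxyurea was added to MS-275, CDK1 and CCNA2 were 1.86-fold and 1.53-fold higher, beside 4.84% of all genes. CDK6 was at 0.65-fold there, which is past 1.5-fold in the other direction, beside 1.03%. With hydroxyurea alone, 0 of the 4 measured genes of that list passed, where 3.12% of all genes were higher and 1.27% lower. Of 9 other genes of deoxynucleotide breakdown and pool sanitation, PNP, the purine nucleoside phosphorylase, was 1.52-fold higher with hydroxyurea and 1.54-fold higher with both drugs. Of all genes, 3.12% and 11.7% were higher there. ITPA, which clears deaminated purine nucleotides, was 1.71 times lower with both drugs and 1.84 times lower with MS-275/hydroxyurea than with hydroxyurea alone. Of all genes, 6.84% and 5.41% were lower in these 2 comparisons. With MS-275 alone, 0 of these 9 passed 1.5-fold, where 6.94% of all genes were higher and 6.84% lower.

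In the de novo pathways that feed RNR, 1 of 4 pyrimidine genes and 1 of 10 purine genes were lower with MS-275, both also in the presence of hydroxyurea. Of all genes, 6.84% were lower with MS-275, a share that 1 of 10 is close to. CTPS2, a CTP synthase, was 2.01 times below the untreated array after MS-275 and 2.40 times below it after the combination. PFAS, of purine synthesis, was 2.06 and 2.16 times lower. With hydroxyurea alone, 0 of these 14 genes passed 1.5-fold, where 3.12% of all genes were higher and 1.27% lower. For so few genes, 0 is close to these shares. Of the 5 measured nucleotide kinases, NME3 alone passed 1.5-fold against untreated cells, at 0.66-fold with both drugs, where 6.84% of all genes were lower.

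**Figure D5:**
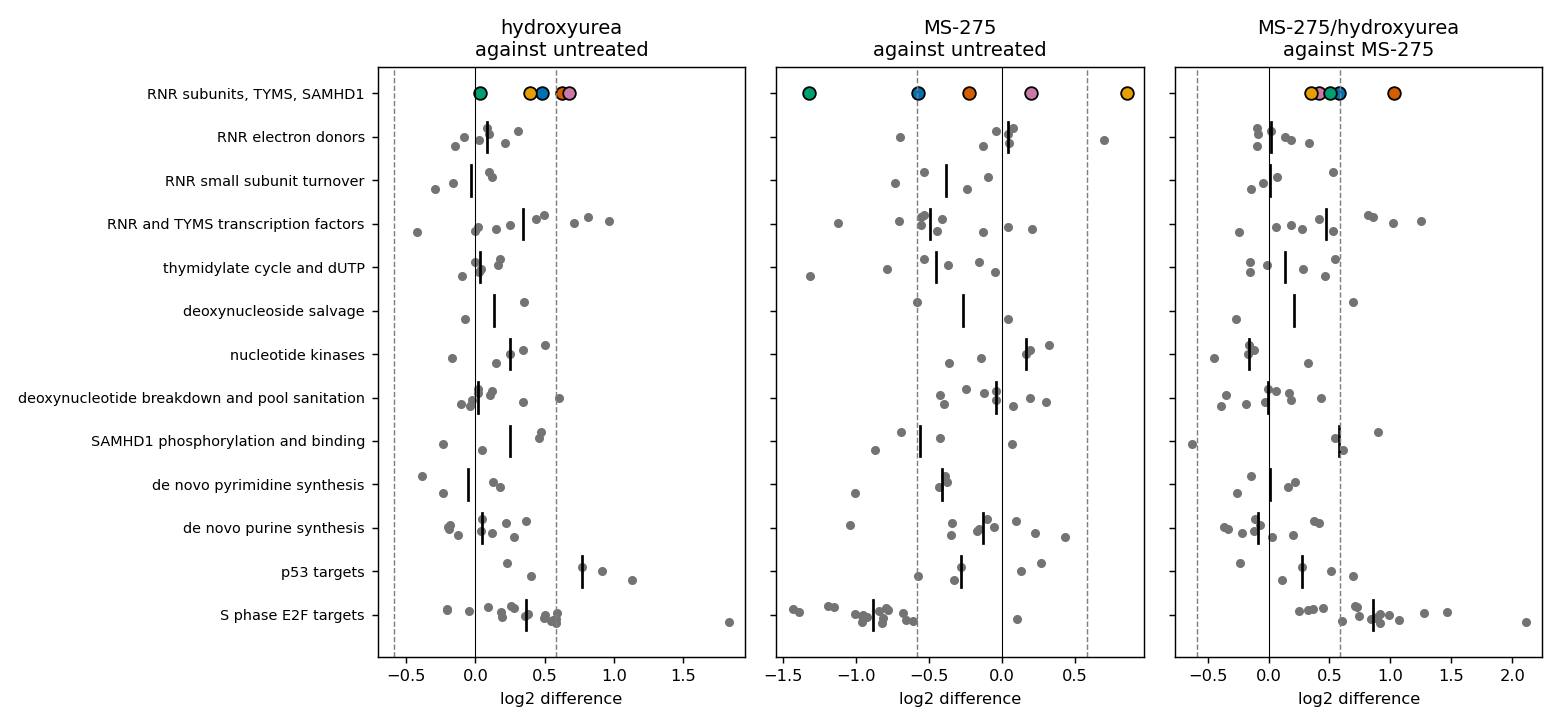
Log2 differences (horizontal axis) of the 5 members (coloured as in the plot of their differences) and of the measured genes of 12 lists (grey, with the list median as a bar), for hydroxyurea alone, MS-275 alone and hydroxyurea added to MS-275, with 1.5-fold as dashed lines. The E2F targets of S phase have medians of 0.37, -0.88 and 0.86, and the RNR electron donors have medians of 0.08, 0.04 and 0.02.

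Genes with the most similar pattern were found by the root mean square distance over the 3 log2 differences against untreated cells, among 7091 other protein-coding genes. These 3 differences share the untreated array, and likeness over 3 points is a description only. Nearest to RRM1 were FAAP24, a Fanconi anaemia core complex partner, at 0.02, CYBRD1, a ferric reductase, at 0.04, and the mitotic kinase gene AURKB at 0.04. AURKB had folds of 1.34, 0.67 and 0.98 with hydroxyurea, MS-275 and both. Nearest to RRM2 were DCLRE1B, a nuclease of telomere and crosslink repair, at 0.03, the transcription factor gene MYB at 0.03 and CCDC15 at 0.04. CCDC15 lay below the filter value of 90.5 on the untreated array (85.6) and with MS-275 (71.9). MYB, at 94.9 with MS-275, lay close to it. RRM2B was nearest to SBDS, a ribosome maturation factor, at 0.02, and to PNP and ICAM1, the last with an untreated intensity of 91.1, close to the filter. TYMS had no neighbour as close. EXOSC8, an exosome subunit, lay at 0.07, UNG at 0.08 and SH2D4A at 0.12. SAMHD1 was nearest to TBX3, CAPN5 and CLU, at distances of 0.05 to 0.06, and CLU had folds of 1.32, 1.92 and 2.24.

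The members were not each other's nearest genes. RRM2 and RRM2B were the closest pair, at 0.27, and 72 genes lay nearer to RRM2 and 363 nearer to RRM2B. RRM1 lay closest to RRM2 among the members, at 0.51, with 3793 genes nearer. For TYMS the closest member was RRM1, at 0.69, with 1358 genes nearer.

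The arrays as a whole had nearly the same median intensity, from 45.9 to 47.1 over 53617 clusters. Of 8 markers of a colon epithelial line, 6 had a named cluster and 4 (EPCAM, KRT8, KRT18 and KRT19) passed the filter, while VIL1 and CDX2 lay below it. The summed intensity of the list was 3679 to 4373 over the 4 arrays. KRT19 differed among them, at 571 on the untreated array, 552 after hydroxyurea, 1080 after MS-275 and 628 after the combination, which is 1.90-fold higher with MS-275 and 1.72 times lower where hydroxyurea was added to it. Of 9 markers of blood, endothelial, stromal, liver and heart cells, 3 had a named cluster (PECAM1, VWF and ALB), 0 passed the filter, and their summed intensity was 86 to 98.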

How the data were processed

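Per the labels, the authors processed the arrays with RMA, which corrects the background, normalizes between arrays and summarises the probes of a transcript cluster. The deposited intensities were taken as linear from their range. The RMA software and the genome build were not given in the sources used here. Of 53617 clusters, 16098 had 1 gene symbol in the platform table, 0 had several and 37519 are unnamed here. For 779 genes with several clusters the brightest was taken. Genes whose mean log2 intensity reached the 50th percentile of the named clusters were kept, which left 7649. Differences are log2 ratios without a pseudocount, and 1.5-fold was the limit counted. With 1 array per condition there is no replicate error, and no test was run. An additive fit of both drugs would leave 1 residual degree of freedom, which is the non-additivity itself, and was not used. The number of arrays limits the precision.

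The members and lists were chosen with earlier results of these data known. Named are the members, from each list up to 4 genes past 1.5-fold in a comparison (otherwise the 2 with the largest differences), and for each member the 3 protein-coding genes of nearest pattern. CCNF, GINS4, MCM7, E2F1, RB1, SHMT1, TXN, TXNRD1 and DTYMK were, in some comparisons, named after their values were seen. Listed genes without a named cluster are not analysed here. Promoter sequences are from RefSeq. Python 3.11.15, numpy 2.4.6, pandas 2.3.3 and matplotlib 3.10.9 were used, and the steps were tested on simulated data. The alternatives were no filter, a filter at the 75th percentile, a 2-fold limit, the mean of a gene's clusters, median centring, quantile normalization and a pseudocount of 32.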

Additional observations from a re-analysis of the deposited data

Results flagged for a closer look

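RRM2 and RRM2B are listed because the difference with MS-275 had the opposite sign without and with hydroxyurea. For RRM2 the log2 difference was -0.23 without hydroxyurea and 0.17 with it. For RRM2B it was 0.20 without and -0.06 with hydroxyurea. None of these 4 values passed 1.5-fold, each rests on 1 pair of arrays, and the difference between them was not tested.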

How the results depend on the processing

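No paired analysis was possible because each condition has 1 array, and for the same reason no replicate could be left out. The values of the 5 genes and the differences between them, 50 in all, moved by at most 0.09 on the log2 scale, with the pseudocount. None that passed 1.5-fold changed sign. The filters, the 2-fold limit and the mean of clusters could not move them, because each member has 1 cluster and passes every filter. Median centring could not move the differences between members. The stability under these settings was thus fixed in advance. RRM2B with both drugs against untreated cells (0.62) was at 0.57 with a pseudocount of 32 and no longer passed, and its difference from RRM1 likewise went from 0.62 to 0.575. RRM1 with both drugs against untreated cells went from 0.00 to 0.03 with median centring and 0.02 with quantile normalization. With median centring, 2 members instead of 1 were higher where hydroxyurea was added to MS-275.

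With a 2-fold limit, 0 members were higher and 0 lower with hydroxyurea, beside 43 and 5 of the 7649 genes. With MS-275, 0 were higher and TYMS was lower, beside 138 and 83. With both drugs against untreated cells, 1 was higher and 0 were lower, beside 289 and 80. Where hydroxyurea was added to MS-275, RRM2 was higher and 0 were lower, beside 54 and 1. MS-275 added to hydroxyurea left 0 higher and 0 lower, beside 171 and 71. Beside the same counts over all genes, 0 of the 61 listed genes were then higher with hydroxyurea, and 0 higher and 4 lower with MS-275. With both drugs, 0 were higher and 2 lower. The counts were 2 higher and 0 lower for hydroxyurea added to MS-275, and 0 higher and 1 lower for MS-275 added to hydroxyurea. For the other alternatives, only counts that changed by more than 1.5-fold, or to 0, are given here and below. With the filter at the 75th percentile, 0 of the listed genes were higher with MS-275, 1 with both drugs and 0 for MS-275 added to hydroxyurea. With the mean of clusters, 1 was higher with both drugs, and with the pseudocount 0 were higher with MS-275 and 1 with both.

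Counts over all genes, higher and lower, were 239 and 97 with hydroxyurea, 531 and 523 with MS-275, 895 and 523 with both, 370 and 79 for hydroxyurea added to MS-275, and 663 and 414 for MS-275 added to hydroxyurea. In the same order they were 43 and 5, 138 and 83, 289 and 80, 54 and 1, and 171 and 71 with the 2-fold limit, and at the stricter filter 109 and 43, 202 and 303, 391 and 301, 185 and 34, and 270 and 201. Without a filter, hydroxyurea gave 467 and 306, MS-275 gave 846 higher, both drugs gave 812 lower, hydroxyurea added to MS-275 gave 562 and 267, and MS-275 added to hydroxyurea gave 1107 and 752. With the pseudocount, hydroxyurea gave 149 and 55, and hydroxyurea added to MS-275 gave 42 lower. These changes follow from fewer or more genes tested, a stricter limit or shrunken ratios.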
